A study of Mus musculus with 24 samples.

Results

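Microglia, the resident macrophages of the brain, were followed through 31 marker genes in hippocampal RNA of 24 mice. The genes were chosen by symbol from known markers of the cell type, with earlier results of these data known, and all 31 were found among the 36605 genes of the count table. They were Cx3cr1, P2ry12, P2ry13, Gpr34, Csf1r, Tmem119, Trem2, Siglech, Fcgr3, Fcrls, Mertk, Itgam, Itgb5, Selplg, Ptprc, Cd53, Tyrobp, Fcer1g, Inpp5d, Apbb1ip, Aif1, Cd68, Ctss, Lyz2, Laptm5, Unc93b1, Ly86, Olfml3, Spi1, Irf8 and Sall1. All 31 passed the filter on low counts.

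The 24 adult mice were 3 females and 3 males of each of 4 genotypes, and no treatment is named in the labels. Egr1wt NesCre- mice (labelled complete wild type) carried neither modification. Egr1f NesCre- mice (labelled Egr1cKO control) carried Egr1 alleles flanked by loxP sites (floxP), derived from the tm1a allele on a C57BL/6N background. Egr1wt NesCre+ mice (labelled Cre control) carried a transgene in which a Nestin promoter drives Cre recombinase, from a B6 line. Egr1f NesCre+ mice (labelled Egr1cKO) carried both, so that Egr1 was removed in cells descended from Nestin-expressing neural precursors, which include neurons, astrocytes and oligodendrocytes throughout the brain and not in the hippocampus alone. Exact ages are not given in the sources used here. The mouse numbers of Egr1wt and of Egr1f animals fell into separate ranges, so in any contrast of Egr1f with Egr1wt the alleles and the range of numbers cannot be told apart.

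Microglia arise from yolk sac progenitors that enter the brain early in development, and not from the neural precursors in which the Nestin promoter is active. They survey the tissue through purinergic and chemokine receptors, depend on signalling through the colony stimulating factor 1 receptor for survival, and engulf debris, dying cells and synapses. Their identity rests on transcription factors such as PU.1 (encoded by Spi1), IRF8 and SALL1. Expression of Egr1 itself can be induced in macrophages as in neurons, and microglia, being outside the Nestin lineage, are not targeted by this Cre.

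PU.1 binds purine-rich sites with a GGAA core, and EGR1 binds a GC-rich site. The 250 bases before the RefSeq start of transcription (GRCm38.p6) were searched on both strands, in 24 of the 31 genes that had an entry. AGGAAGT, a PU.1-type site, was found in 7 of the 24 genes (Apbb1ip, Fcrls, Inpp5d, Lyz2, P2ry12, Ptprc and Sall1), or 29.2%, beside 8.80% of all 27025 genes with an entry. GCGTGGGCG, the EGR1 consensus, was found in 0 of the 24, beside 0.622% of all genes. Its shorter part GTGGGCG, which overlaps every match of the consensus, was found in Cd68 and Fcer1g, or 8.33%, beside 7.98% of all genes. These matches are letters in a window and were not measured as binding. The 4 windows below are shown for P2ry12 and Inpp5d as genes with a PU.1-type match, for Ctss as the member with the highest level per length, in which none of the 3 motifs was found, and for Cd68 as a gene with the EGR1-type part. Each is written 5′ to 3′ on the strand of the gene, with motif matches in capitals. The windows lie at chr3:59262986-59263235 (minus strand, P2ry12), chr1:87620062-87620311 (plus strand, Inpp5d), chr3:95526536-95526785 (plus strand, Ctss) and chr11:69666171-69666420 (minus strand, Cd68).
P2ry12: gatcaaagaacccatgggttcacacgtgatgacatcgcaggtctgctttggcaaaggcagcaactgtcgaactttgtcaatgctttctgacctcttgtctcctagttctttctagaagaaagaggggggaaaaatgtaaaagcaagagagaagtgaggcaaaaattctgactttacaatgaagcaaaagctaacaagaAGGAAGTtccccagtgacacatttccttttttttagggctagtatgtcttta
Inpp5d: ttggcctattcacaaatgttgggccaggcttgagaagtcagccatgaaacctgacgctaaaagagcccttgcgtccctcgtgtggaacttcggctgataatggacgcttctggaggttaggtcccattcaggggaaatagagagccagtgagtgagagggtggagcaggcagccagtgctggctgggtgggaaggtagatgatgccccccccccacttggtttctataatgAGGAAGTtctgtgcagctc
Ctss: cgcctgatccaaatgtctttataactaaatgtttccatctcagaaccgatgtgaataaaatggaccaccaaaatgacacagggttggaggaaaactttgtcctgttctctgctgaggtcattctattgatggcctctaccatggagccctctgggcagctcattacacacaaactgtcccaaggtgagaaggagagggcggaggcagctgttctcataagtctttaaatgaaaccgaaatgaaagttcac
Cd68: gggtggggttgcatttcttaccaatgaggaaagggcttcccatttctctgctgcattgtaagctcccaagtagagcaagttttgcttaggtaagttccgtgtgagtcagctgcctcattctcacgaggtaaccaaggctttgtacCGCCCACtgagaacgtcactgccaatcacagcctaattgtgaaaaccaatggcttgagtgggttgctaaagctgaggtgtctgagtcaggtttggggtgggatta
The match of P2ry12 began 52 bases before the start and that of Inpp5d 19 bases before it. In Cd68 the motif lay on the opposite strand and its first letter in the window stood 105 bases before the start.

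Total counts per mouse ran from 18025168 to 34955004 with a median of 22743950.5, and the 31 genes together took 0.0488% to 0.0712% of them. Egr1, the targeted gene, had 4.86, 8.18 and 10.2 CPM (counts scaled to the same library size) as the lowest, median and highest of the 6 Egr1cKO mice. In the other 18 mice the lowest, median and highest were 47.7, 96.8 and 149 CPM, so the levels did not overlap. The labels give the tissue as hippocampus and the cell type as endocrine. All 8 hippocampal marker genes examined, among them Neurod6 and C1ql2, were present, and 6 of 7 pituitary hormone and lineage genes had a mean under 1 CPM. Ttr, a marker of the choroid plexus, exceeded 100 CPM in 5 mice (Egr1f NesCre- males 2 and 3, Egr1wt NesCre+ female 1 and male 3, and Egr1cKO male 2). All 10 blood leukocyte markers, among them Cd79a and S100a9, had means under 1 CPM.

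The 31 genes summed to 566 ± 29.2 CPM in Egr1wt NesCre-, 579 ± 28.1 in Egr1f NesCre-, 581 ± 54.5 in Egr1wt NesCre+ and 631 ± 37.7 in Egr1cKO mice (mean ± SD, n = 6 each). The lowest Egr1cKO mouse had 599.6 CPM, and 1 Egr1f NesCre- mouse (625 CPM) and 2 Egr1wt NesCre+ mice (603 and 652 CPM) exceeded it. In whole tissue, a difference in the number of cells of a type and a difference in RNA per cell cannot be told apart.

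Among the receptors by which microglia sense their surroundings, Csf1r, the receptor of CSF1 and IL-34, had the highest level, with 91.5 ± 10.1 CPM (mean ± SD, n = 24). Cx3cr1, the receptor of the neuronal chemokine fractalkine, had 48.0 ± 7.37 CPM, and P2ry12, the ADP receptor that guides microglial processes, 31.6 ± 4.35 CPM. Tmem119, a membrane protein used as a microglial label, had 21.5 ± 2.56 CPM. P2ry13, another ADP receptor, and Gpr34, a lysophosphatidylserine receptor, had 9.60 ± 1.54 and 9.67 ± 1.14 CPM. Per kilobase of exon, Csf1r at 15.8 CPM per kb was followed by P2ry12 at 12.4 and Cx3cr1 at 10.6.

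The phagocytic and immune receptors spanned a wider range. Itgb5, an integrin subunit, and Mertk, a receptor tyrosine kinase for the engulfment of apoptotic cells, had 44.9 ± 4.40 and 43.7 ± 7.70 CPM, and both are known to be expressed by astrocytes as well. Selplg, which encodes the selectin ligand PSGL-1, had 26.5 ± 2.56 CPM and Fcrls, an Fc receptor-like gene, 21.7 ± 3.04 CPM. Siglech, a sialic acid-binding lectin, Trem2, a lipid-sensing receptor, and Fcgr3, an activating Fc gamma receptor, had means of 13.9, 11.5 and 8.69 CPM. Itgam, the CD11b subunit of complement receptor 3, Cd53, a tetraspanin, and Ptprc, the CD45 phosphatase of blood-lineage cells, had means of 6.27, 5.62 and 3.90 CPM. Ptprc was the lowest of all 31 per length at 0.213 CPM per kb.

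Adapters and signalling genes were present at low levels. Tyrobp, which encodes the adapter DAP12 of Trem2, and Fcer1g, the common Fc receptor gamma chain, had 7.64 ± 1.102 and 5.61 ± 0.853 CPM. Inpp5d, the phosphatase SHIP1 that opposes such signals, had 13.3 ± 1.98 CPM, and Apbb1ip, an adapter of Rap1 in integrin activation, 5.20 ± 1.23 CPM. Aif1, which encodes the cytoskeletal protein IBA1 used to stain microglia, had 3.69 ± 0.853 CPM.

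Among endolysosomal and secreted products, Ctss, the protease cathepsin S, had 45.8 ± 4.42 CPM and was the highest member per length at 33.8 CPM per kb. Laptm5, a lysosomal membrane protein, had 30.3 ± 2.80 CPM. Olfml3, a secreted olfactomedin-like protein, and Unc93b1, the chaperone of endosomal Toll-like receptors, had means of 17.8 and 14.1 CPM. Ly86 (MD-1, partner of the receptor RP105), Cd68, a lysosomal glycoprotein, and Lyz2, the macrophage lysozyme, had 6.497, 6.22 and 4.98 CPM. Of the transcription factors, Sall1 had 21.4 ± 3.60 CPM, Irf8 4.89 ± 0.867 CPM and Spi1 3.202 ± 0.944 CPM.

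**Figure D1:**
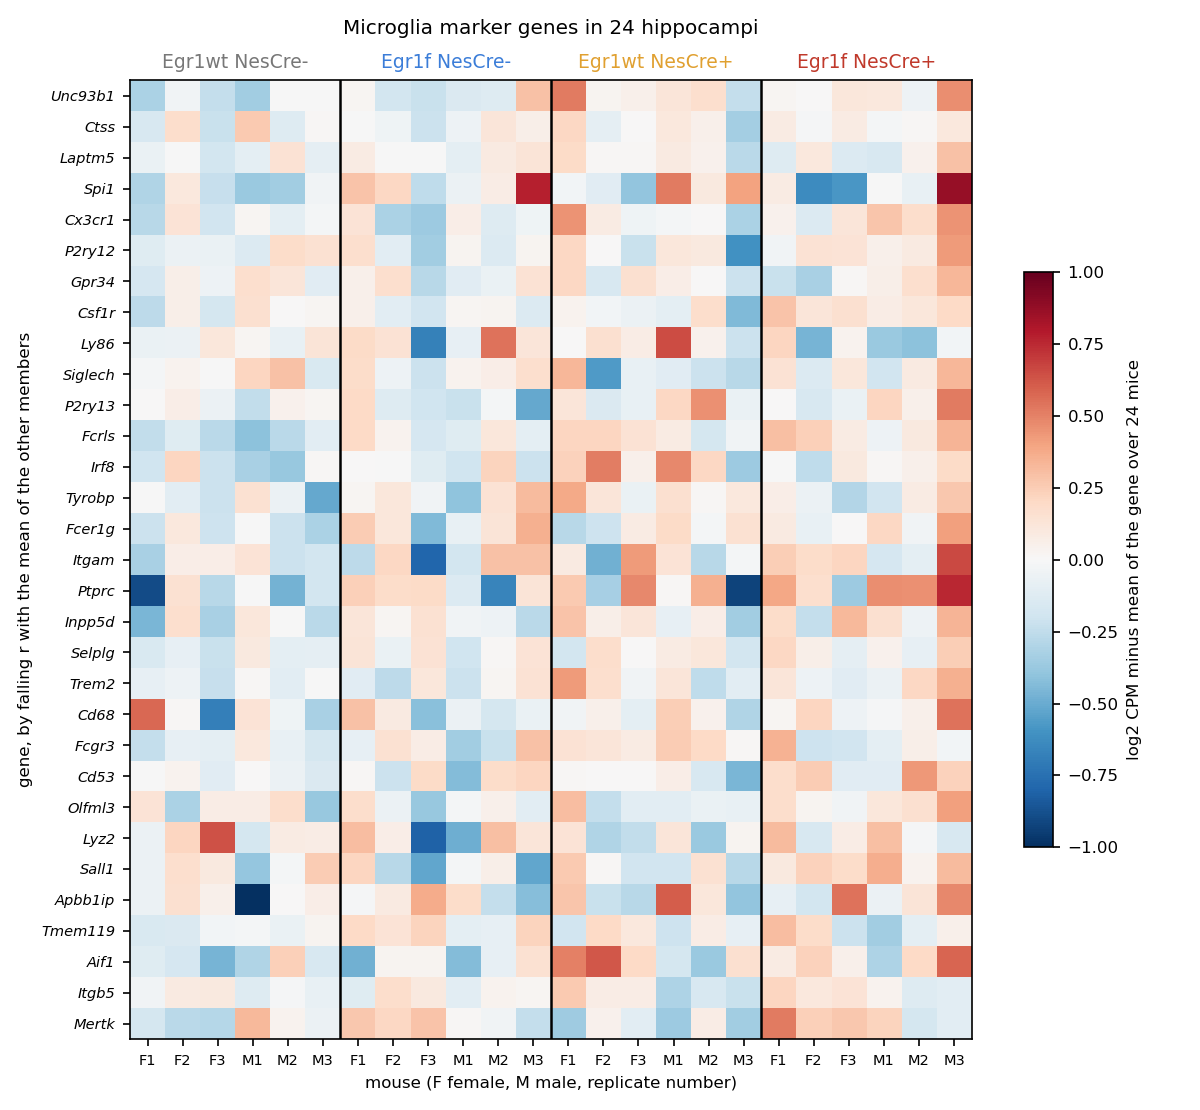
Level of each of the 31 microglia marker genes (rows, ordered by how closely each followed the mean of the others) in each of the 24 mice (columns, by genotype, F for females and M for males), as log2 CPM minus the mean of the gene over all mice, in red above and blue below that mean. Male 3 of the Egr1cKO mice was above the mean in 26 of the 31 genes and male 3 of the Egr1wt NesCre+ mice in 6.

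The first question was whether Egr1 loss in the Nestin lineage came with other levels of microglial transcripts. The closest comparison was that of Egr1cKO with floxed mice without Cre (Egr1f NesCre-), whose mouse numbers come from 1 range. These groups differ in the Nestin-Cre transgene as well as in Egr1, so this contrast alone cannot tell Egr1 loss from the transgene. Of the 31 genes, 0 were called by edgeR's quasi-likelihood test with limits of 0.05 for the adjusted p and 1.2 for the fold change (FC), beside 0.0304% of all genes (0.0203% higher in Egr1cKO mice). DESeq2 also called 0. At an unadjusted p under 0.05 there were 4 (Sall1, Csf1r, Cx3cr1 and Fcrls), each with a higher mean in Egr1cKO mice, beside 15.4% of all genes. The log2 FC was above 0 in 26 of 31 genes, with a median of 0.13, beside 47.9% and -0.012 over all genes. Without Egr1f NesCre- male 1 the median was 0.079.

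Csf1r had 95.6, 100.4 and 110.8 CPM as the lowest, median and highest of the 6 Egr1cKO mice and 79.5, 88.2 and 94.0 CPM in Egr1f NesCre- mice. All 6 Egr1cKO mice therefore lay above all 6 floxed controls, and Csf1r was the only 1 of the 31 genes whose levels did not overlap, beside 0.446% of all genes in either direction and 0.172% that were higher. Its log2 FC of 0.22 (SE 0.08) did not pass the threshold (adjusted p = 0.246, edgeR). Csf1r shares 873 bases of exon with Hmgxb3 on the opposite strand, and counts made without regard to strand could not separate them. Itgam shares 3450 bases of exon with Gm49368 on its own strand.

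Cx3cr1 had 43.1, 52.5 and 64.7 CPM in Egr1cKO and 36.8, 44.7 and 52.0 CPM in Egr1f NesCre- mice, again as the lowest, median and highest, with 3 Egr1cKO mice inside the range of the controls. Its log2 FC was 0.26 (SE 0.11, adjusted p = 0.270, edgeR). Sall1, at chr8:89027235-89044162 on the minus strand, had 21.6, 24.4 and 27.3 CPM in Egr1cKO and 14.7, 19.1 and 24.5 CPM in Egr1f NesCre- mice. Its log2 FC of 0.36 (SE 0.12, adjusted p = 0.238, edgeR) was the highest of the 31, and the groups overlapped. Without a filter on low counts Sall1 was called (log2 FC 0.36, adjusted p = 0.0221, edgeR), as were 2.19% of all genes.

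By role, all 10 phagocytic and immune receptors and 5 of 6 sensing receptors had a log2 FC above 0, with medians of 0.11 and 0.21. The same held for 4 of 5 adapters, 5 of 7 endolysosomal and secreted genes and 2 of 3 transcription factors. Below 0 were Ly86 (-0.23), Spi1 (-0.20), Tmem119 (-0.11), Tyrobp (-0.05) and Laptm5 (-0.02), none of which passed the test. The typical SE of 0.12 (median over the 31 genes) sets the precision, and the 95% normal interval reached furthest for Ptprc, from -0.099 to 0.78 on the log2 scale.

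**Figure D2:**
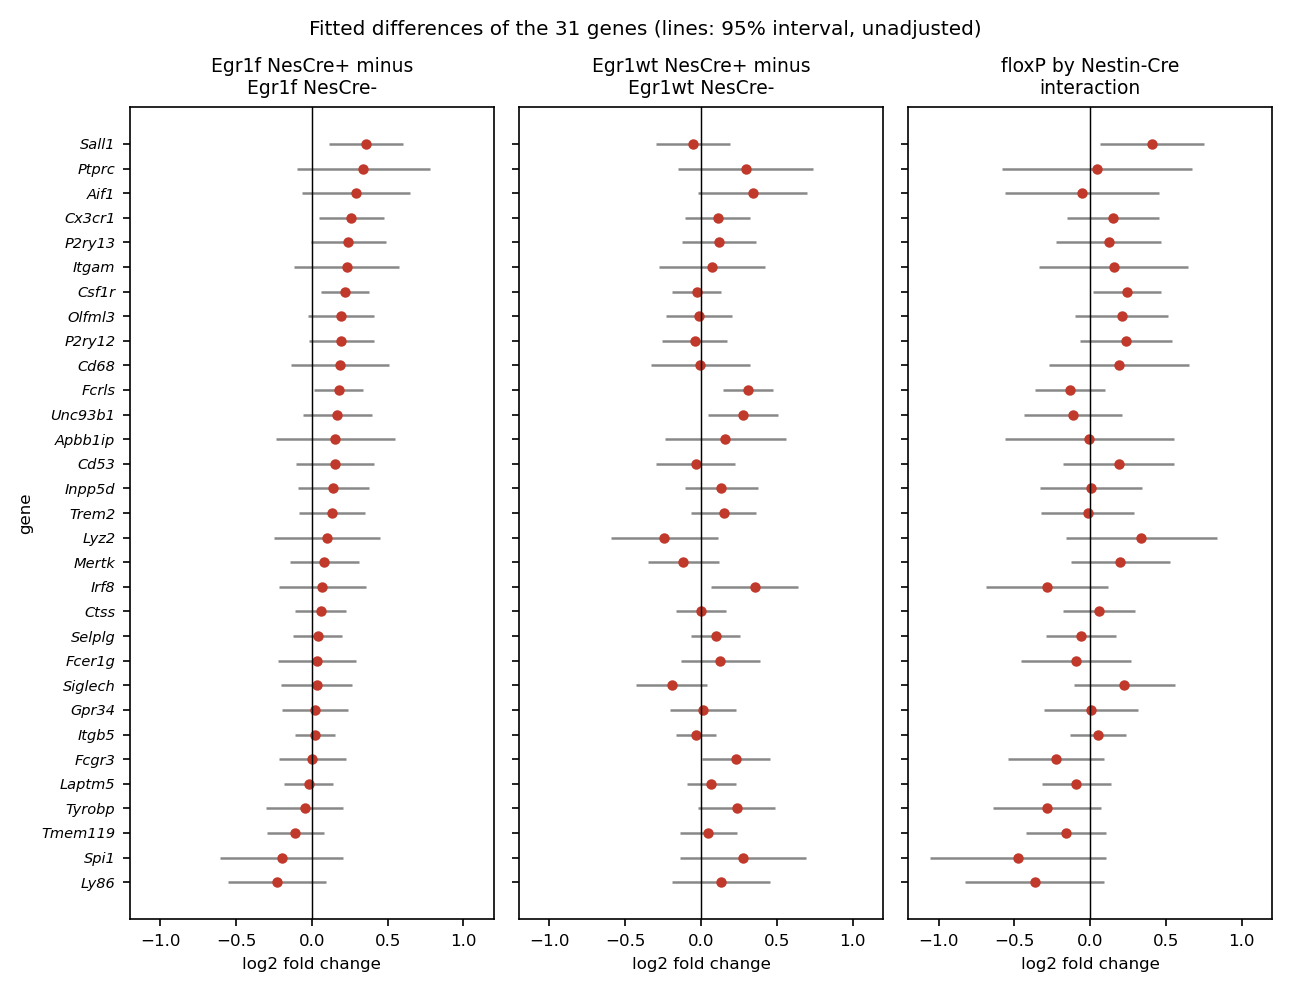
Fitted log2 fold changes (x axis) of the 31 genes (y axis) in Egr1f NesCre+ against Egr1f NesCre- mice, in Egr1wt NesCre+ against Egr1wt NesCre- mice and for the floxP by Nestin-Cre interaction. Points are estimates and lines are 95% normal intervals without adjustment. In the left panel 26 of 31 points lie above 0 and none was called.

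The same question was asked with Cre-carrying controls. Against Egr1wt NesCre+ mice, 0 of the 31 genes were called in Egr1cKO mice by edgeR, beside 0.00507% of all genes, and 0 by DESeq2. At an unadjusted p under 0.05 there were 2 (Mertk and Csf1r), where 15.3% of all genes were at that limit. The median log2 FC was 0.10 with 22 genes above 0, beside -0.02 over all genes, and it was 0.045 without Egr1wt NesCre+ male 3 and 0.063 without Egr1cKO male 3. None of the 31 genes had levels that did not overlap, beside 0.385% of all genes.

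Mertk, at chr2:128698956-128802894, had 38.0, 50.5 and 61.6 CPM as the lowest, median and highest in Egr1cKO mice and 33.5, 36.9 and 45.3 CPM in Egr1wt NesCre+ mice. Its log2 FC of 0.34 (SE 0.12, adjusted p = 0.220, edgeR) stood beside 0.08 (SE 0.12) against Egr1f NesCre- mice, whose lowest, median and highest levels were 36.4, 46.6 and 52.6 CPM. Csf1r had 66.9, 88.3 and 102.9 CPM in Egr1wt NesCre+ mice, and its log2 FC was 0.22 (SE 0.08, adjusted p = 0.237, edgeR). Sall1 had 17.5, 19.9 and 25.3 CPM there, with a log2 FC of 0.24 (SE 0.12, adjusted p = 0.360, edgeR). Without Egr1wt NesCre+ male 2, 2 genes were called, Mertk with a log2 FC of 0.42 (adjusted p = 0.0396, edgeR) and Csf1r with 0.28 (adjusted p = 0.0411, edgeR), and 4.76% of all genes were called then. Without a filter on low counts Mertk was called (0.35, adjusted p = 0.00465, edgeR), beside 2.17% of all genes.

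**Figure D3:**
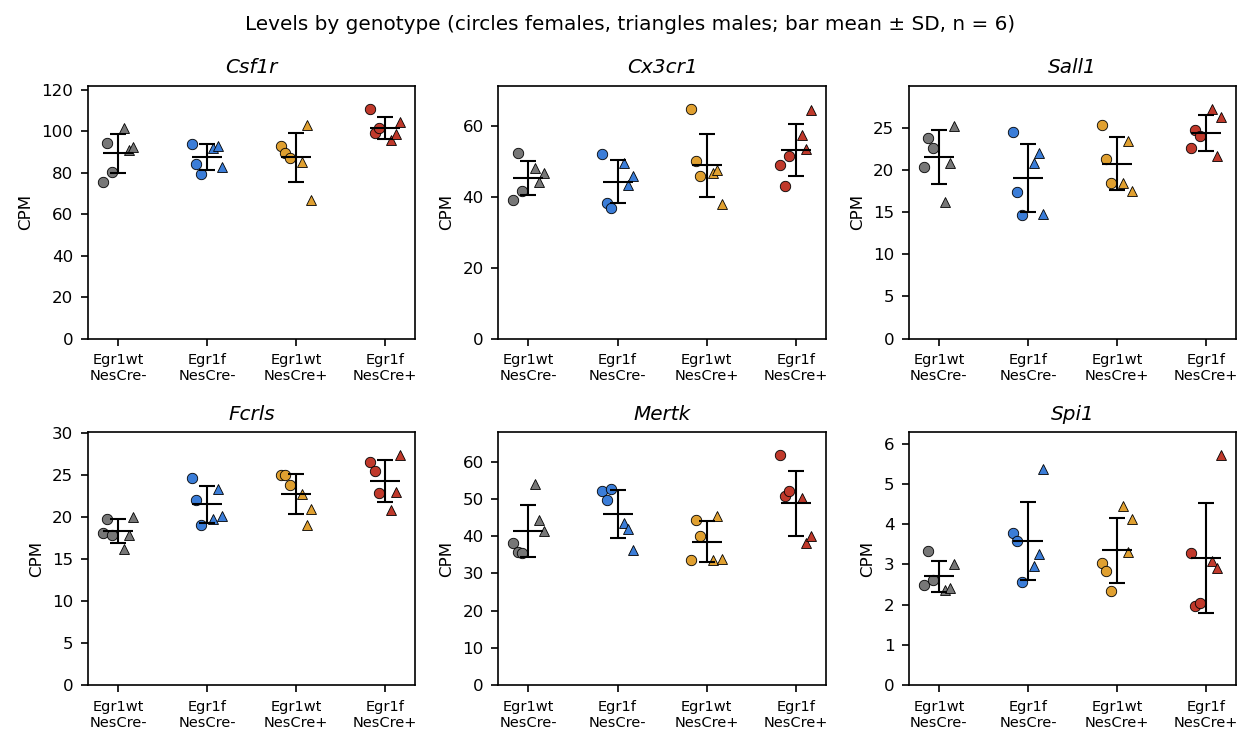
Levels in CPM (y axis) of Csf1r, Cx3cr1, Sall1, Fcrls, Mertk and Spi1 by genotype (x axis), with circles for females, triangles for males and bars for the mean ± SD of 6 mice. The 6 Egr1cKO mice have 95.6 to 110.8 CPM of Csf1r, above the 94.0 CPM of the highest Egr1f NesCre- mouse, and for the other 5 genes these groups overlap.

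The Nestin-Cre transgene and the floxed alleles were examined alone. In Egr1wt NesCre+ against Egr1wt NesCre- mice, 0 of the 31 genes were called by edgeR, beside 0% of all genes, and 0 by DESeq2. At an unadjusted p under 0.05 there were 3 (Fcrls, Irf8 and Unc93b1), beside 5.92% of all genes. Fcrls, at chr3:87250758-87263738 on the minus strand, had 19.0, 23.3 and 25.1 CPM as the lowest, median and highest of the Cre controls and 16.2, 18.01 and 20.04 CPM in the wild type. The 2 groups overlapped in that range, and the log2 FC was 0.31 (SE 0.08, adjusted p = 0.659, edgeR). Irf8 and Unc93b1 had log2 FCs of 0.35 (SE 0.15) and 0.28 (SE 0.12), with an adjusted p of 0.780 each (edgeR), and that of Unc93b1 was 0.17 without Egr1wt NesCre+ female 1. The median log2 FC of the 31 genes was 0.10, with 21 above 0, beside 0.01 over all genes, and it was 0.053 without Egr1wt NesCre+ male 1 and 0.058 without Egr1wt NesCre+ female 1.

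In Egr1f NesCre- against Egr1wt NesCre- mice, 0 of the 31 genes were called by edgeR, beside 0% of all genes, and 0 by DESeq2. Fcrls was the only gene at an unadjusted p under 0.05, beside 6.70% of all genes, with 19.1, 21.1 and 24.7 CPM as the lowest, median and highest of the floxed mice and a log2 FC of 0.23 (SE 0.08, adjusted p = 0.712, edgeR). Spi1 and Tmem119 followed, with log2 FCs of 0.39 (SE 0.21) and 0.17 (SE 0.10) and an adjusted p of 0.712 each (edgeR). Spi1 had 2.58, 3.42 and 5.37 CPM in Egr1f NesCre- and 2.37, 2.55 and 3.33 CPM in Egr1wt NesCre- mice, so that the groups overlapped. The median over the 31 genes was 0.053, with 20 above 0. Without Egr1f NesCre- male 3 it was 0.0068, without male 2 0.012 and without male 1 0.084. Without the 5 mice with high Ttr, of which 2 were Egr1f NesCre- and none Egr1wt NesCre-, it was marginally below 0. Neither control comparison held a member whose levels did not overlap, beside 0.258% of all genes for Cre and 0.263% for floxP. Fcrls was lowest in the wild type, and its mean was 18.3 ± 1.43 CPM there, 21.5 ± 2.20 in floxed mice, 22.8 ± 2.39 in Cre controls and 24.3 ± 2.51 in Egr1cKO mice (mean ± SD, n = 6). These comparisons share mice with each other, so that a low or high group enters several of them.

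The interaction of floxP and Nestin-Cre asks whether Egr1cKO mice differ from what the floxed alleles and the transgene give when added. It was called for 0 of the 31 genes by edgeR, beside 0.00507% of all genes, and for 0 by DESeq2, and 2 (Sall1 and Csf1r) were at an unadjusted p under 0.05 beside 18.4% of all genes. Sall1 had an interaction of 0.41 on the log2 scale (SE 0.18, adjusted p = 0.217, edgeR) and Csf1r of 0.25 (SE 0.11, adjusted p = 0.252, edgeR). Spi1, the third by p, had -0.48 (SE 0.30, adjusted p = 0.393, edgeR), and -0.31 without the 5 mice with high Ttr. The median over the members was 0.0081, with 17 of 31 above 0, beside -0.03 over all genes. With 1 mouse left out at a time it ran from -0.05 (Egr1wt NesCre+ male 3) to 0.074 (Egr1wt NesCre+ female 1), so its sign depended on single mice. The interaction of Egr1 in the same fit was -3.22.

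Egr1cKO mice were also set against the other 18 mice, the grouping of mice with and without Egr1. Here too 0 of the 31 genes were called by edgeR, beside 0.00507% of all genes, and 0 by DESeq2. At an unadjusted p under 0.05 there were 8, all with a higher level in Egr1cKO mice (Csf1r, Fcrls, Sall1, Ptprc, Cx3cr1, Mertk, Olfml3 and P2ry12), or 8 of 31 beside 14.8% of all genes. Csf1r had the smallest p, with 66.9, 90.2 and 102.9 CPM as the lowest, median and highest of the 18 mice. The lowest Egr1cKO mouse, at 95.6 CPM, was above that median, and the groups overlapped. Its log2 FC was 0.21 (SE 0.06, adjusted p = 0.204, edgeR). Fcrls had a log2 FC of 0.22 (SE 0.08, adjusted p = 0.241, edgeR) and Sall1 of 0.26 (SE 0.10, adjusted p = 0.249, edgeR). The median over the members was 0.13, with 26 above 0, and was 0.077 without Egr1cKO male 3, and none of the 31 had levels that did not overlap, beside 0.0101% of all genes.

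Markers of other cells were compared in the same way, and their part in the values of the 31 genes was not tested. Over all genes, 15.4% were at an unadjusted p under 0.05 (edgeR) in Egr1cKO against Egr1f NesCre- mice. Aqp4, the astrocyte water channel, was called higher in Egr1cKO than in Egr1f NesCre- mice, with a log2 FC of 0.82 (SE 0.11, adjusted p = 0.000523, edgeR), and was the only 1 of 10 astrocyte markers called, to which DESeq2 added Gja1. At an unadjusted p under 0.05 there were 3. Mean levels were lower in Egr1cKO mice for Aldoc (644 against 735 CPM) and Fgfr3 (119 against 125 CPM) and higher for the other astrocyte markers. All 10 oligodendrocyte markers had a log2 FC below 0 in that comparison, with a median of -0.22, 3 at an unadjusted p under 0.05 and none called by edgeR (Mobp by DESeq2), and 8 of 10 endothelial markers had one above 0, with a median of 0.11, 0 at an unadjusted p under 0.05 and none called by either tool. Of 5 oligodendrocyte precursor markers 3 were at an unadjusted p under 0.05, and of 10 meningeal fibroblast markers 4, with none called by either tool. Mean levels in these lists were higher in Egr1cKO mice except for Olig2 and Lum. Of 10 markers of macrophages at the borders of the brain, 8 were tested, 7 had a log2 FC above 0, 2 were at an unadjusted p under 0.05 and none was called by either tool, with a median of 0.36. Their summed level ran from 22.7 to 26.8 CPM in Egr1cKO mice and from 17.8 to 22.2 CPM in Egr1f NesCre- mice. In the other 18 mice it ran from 11.9 to 26.0 CPM. Stab1 gave most of this sum, with a mean of 15.1 CPM over all mice, and 7 of the 10 markers had means under 1 CPM. Levels of Stab1 itself overlapped, with 14.3 to 20.4 CPM in Egr1cKO and 13.5 to 17.4 CPM in Egr1f NesCre- mice.

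The other comparisons had such values too. Against Egr1wt NesCre+ mice, all 10 oligodendrocyte markers had a log2 FC below 0 in Egr1cKO mice (median -0.26), with 6 at an unadjusted p under 0.05 and 0 called by edgeR or DESeq2. Against the other 18 mice all 10 were below 0 again (median -0.22), with 7 at that limit and 0 called by either tool, while DESeq2 called Aqp4 and edgeR did not. Of the 5 oligodendrocyte precursor markers 3 were at that limit in each of these comparisons, with 0 called by either tool. In Egr1wt NesCre+ against Egr1wt NesCre- mice all 9 choroid plexus markers had a log2 FC above 0 (median 3.08), with 8 at that limit, 0 called by edgeR and Ttr called by DESeq2. The same 9 were above 0 in Egr1f NesCre- against Egr1wt NesCre- mice (median 2.12), with 3 at that limit and 0 called by either tool. Over all genes, the shares at that limit were 15.3%, 14.8%, 5.92% and 6.70% in the order of these comparisons. The part of these markers in the values of the 31 genes was not tested.

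Sex was compared over 12 females and 12 males. By edgeR and by DESeq2, 0 of the 31 genes were called, beside 0.0658% of all genes by edgeR, and 2 (Itgb5 and Spi1) were at an unadjusted p under 0.05, beside 5.79% of all genes. Itgb5 had 41.1, 47.8 and 53.6 CPM as the lowest, median and highest in females and 36.0, 41.5 and 45.8 CPM in males, with a log2 FC of 0.20 (SE 0.05, adjusted p = 0.262, edgeR). Spi1 had 1.96, 2.74 and 3.79 CPM in females and 2.37, 3.17 and 5.71 CPM in males, with a log2 FC of -0.33 (SE 0.15, adjusted p = 0.834, edgeR). Both pairs of groups overlapped. Fcrls followed with 0.10 (SE 0.06, adjusted p = 0.911, edgeR), and the median over the members was -0.02, with 14 of 31 above 0, and ran from -0.039 to 0.006 with 1 mouse left out at a time (Egr1wt NesCre+ male 3 and Egr1cKO male 3). None had levels that did not overlap, beside 0.0355% of all genes (0.0253% lower in females).

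Whether the difference between Egr1cKO and Egr1f NesCre- mice depended on sex was tested as its own contrast. It was called for 0 of the 31 genes by edgeR, beside 0% of all genes, and for 0 by DESeq2, and P2ry13 was the only gene at an unadjusted p under 0.05, beside 4.48% of all genes. P2ry13 had 9.5, 8.5 and 9.1 CPM in the 3 Egr1cKO females and 10.9, 8.7 and 8.3 CPM in the 3 Egr1f NesCre- females. In males it had 11.0, 9.8 and 13.7 CPM in Egr1cKO and 8.1, 9.4 and 6.6 CPM in Egr1f NesCre- mice, so that the groups overlapped in females and not in males. With 3 mice against 3, levels did not overlap in 7 of the 31 genes in males, beside 8.93% of all genes, and in 2 in females, beside 21% of all genes. The difference between the sexes (female minus male) was -0.56 on the log2 scale (SE 0.23, adjusted p of 1.00, edgeR). Ptprc and Gpr34 had -0.87 (SE 0.43) and -0.36 (SE 0.21), also with an adjusted p of 1.00 (edgeR). The median over the members was -0.085, with 11 of 31 above 0, and ran from -0.16 (without Egr1f NesCre- male 3) to 0.0096 (without Egr1f NesCre- female 1), and the 3 mice in each group give this contrast a median SE of 0.24.

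The shared variation of the 31 genes across mice was then described within the 8 groups of genotype and sex. Levels were put on the log2 CPM scale and centred on each group mean, so that differences between groups cannot give a correlation. The points of every correlation are the same 24 libraries, which share depth, dissection and normalization. Centring on 8 group means leaves fewer than 24 independent deviations behind each r. Over the 465 pairs of members the median Pearson's r was 0.22, with 80% of pairs above 0 and 13.5% above 0.5, beside a median of -0.001 over all pairs of tested genes, of which 5.40% were above 0.5. The first principal component of the 31 genes held 29.2% of their variance and the second 14.9%.

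The tightest pairs were P2ry13 with Sall1 (r = 0.80, n = 24), P2ry12 with Unc93b1 (0.77), Gpr34 with Siglech (0.76), Csf1r with Ctss (0.75) and Itgam with Fcer1g (0.74). The most opposed were Mertk with Aif1 (-0.50) and Fcgr3 with Sall1 (-0.50). By role, the median r was 0.45 among the 6 sensing receptors, 0.29 among the 7 endolysosomal and secreted genes, 0.18 among the 10 phagocytic and immune receptors and 0.10 among the 5 adapters. Among the 3 transcription factors it was 0.27.

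Each gene was next set against the mean of the other 30. Unc93b1 and Ctss (r = 0.72 each), Laptm5 (0.69), Spi1 (0.66), Cx3cr1 and P2ry12 (0.65 each) led, and 14 genes were above 0.5. A further 12 lay between 0.2 and 0.5. The remaining 5 were Apbb1ip (0.18), Tmem119 (0.12), Aif1 (0.09), Itgb5 (0.02) and Mertk (-0.17). Mertk had r = 0.39 with the mean of the 10 astrocyte markers and 0.04 with that of 25 further microglial genes, while Itgb5 had 0.08 and 0.07. Sall1 had r = 0.67 with the astrocyte mean and 0.02 with the further microglial genes, although its r with the other 30 members was 0.25. Aif1 had -0.67 with the astrocyte mean and 0.04 with the further microglial genes. Ctss had the closest link to the further microglial genes (r = 0.83), followed by Csf1r (0.69). With the astrocyte mean, Csf1r had r = 0.57, Cx3cr1 0.53 and Ctss 0.32. The leading genes were also set against the mean of the 10 endothelial markers. Unc93b1 had r = 0.67 with it and 0.39 with the further microglial genes, and P2ry12 had 0.60 and 0.48. In the same order Laptm5 had 0.58 and 0.59, Cx3cr1 0.48 and 0.48, Ctss 0.44 and 0.83, and Spi1 0.15 and 0.35.

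**Figure D4:**
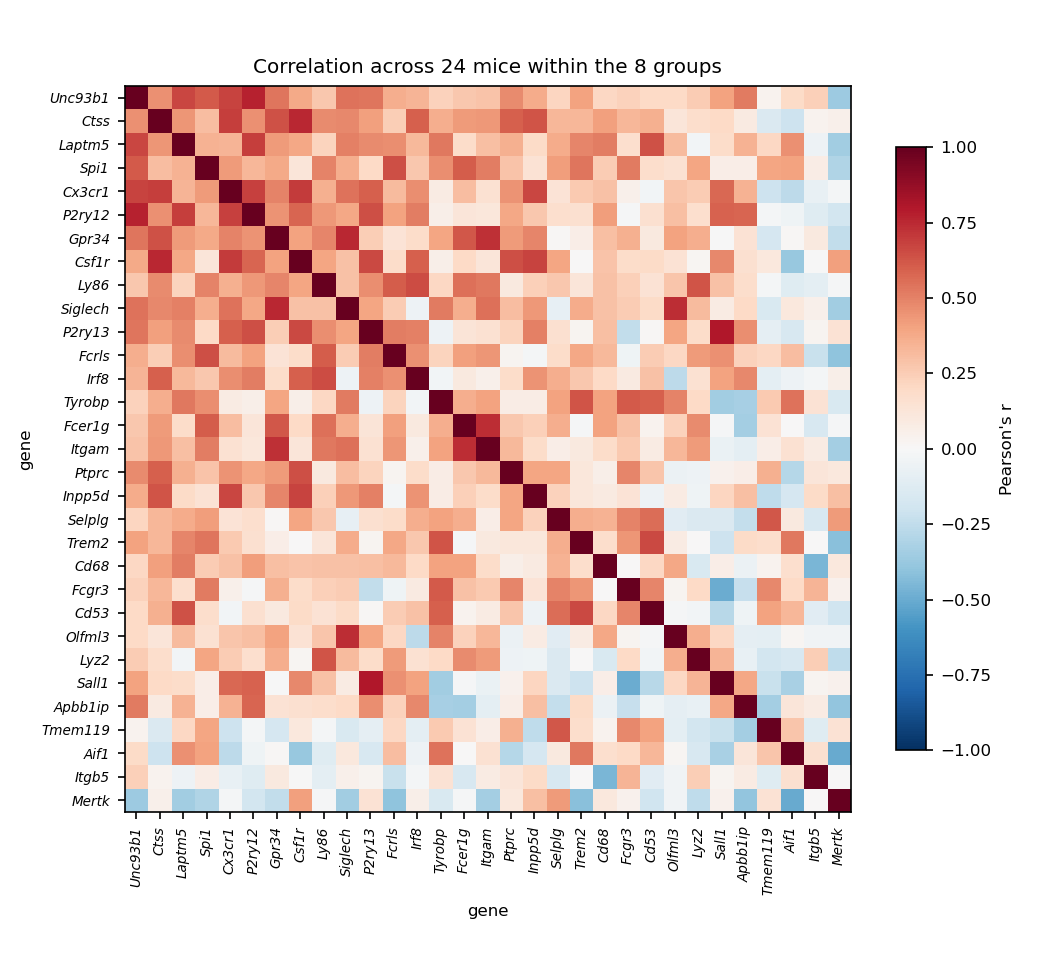
Pearson's r (color scale) between each pair of the 31 genes over 24 mice, after log2 CPM were centred on the 8 groups of genotype and sex, with genes ordered on both axes by their r with the mean of the others. Over the 465 pairs the median r is 0.22, and Mertk, in the last row, has the lowest r with the mean of the others (-0.17).

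The spread of single genes limits these values. The coefficient of variation within groups had a median of 14.3% over the members, from 6.41% for Itgb5 to 26.9% for Spi1, where counting error alone gives a median of 6.19%. Over the 9978 genes with a mean count in the same range the median was 12.7%. Spi1, with a mean of 73.3 counts per mouse, had the fewest reads, and counting error alone gives it 11.7%. Csf1r, with 2079 counts, had a coefficient of 9.50%, where counting error alone gives 2.19%.

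Lists of markers of other cell types differed in how far they varied together. The median r within a list was 0.80 among 10 oligodendrocyte markers, 0.61 among 10 endothelial markers, 0.41 among 10 astrocyte markers and 0.17 among the 25 further microglial genes, whose highest levels per length were those of C1qa and C1qb. Among 10 neuron markers it was -0.17. The mean of those 25 genes followed the mean of the 31 members with r = 0.81 (Spearman's rho 0.78, and r = 0.78 without Egr1cKO male 3 and Egr1wt NesCre+ male 3, the mice farthest from the median). The endothelial mean had r = 0.53 with the members (rho 0.61, and r = 0.49 without those mice), the pericyte mean 0.46 (0.38 without those mice) and the mean of the 21 signalling partners described last 0.51 (0.49). The 4 inflammatory cytokine genes that passed the filter, all with means under 1 CPM, had 0.61 (0.58). These 4 did not vary together, with a median r of -0.11 among them and 33.3% of their pairs above 0. The astrocyte mean had r = 0.17 (0.20 without those mice), that of hippocampal markers -0.32 (-0.25), that of neuron markers -0.31 (-0.23) and that of meningeal fibroblasts -0.0014 (-0.053). Without those mice the oligodendrocyte mean had 0.40 rather than 0.10 and the choroid plexus mean 0.34 rather than 0.062.

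Across mice, the mean log2 deviation of the 31 genes ran from -0.20 in Egr1wt NesCre+ male 3 to 0.31 in Egr1cKO male 3, with an SD within groups of 0.11. Egr1wt NesCre+ female 1 (0.16) and Egr1cKO female 1 (0.14) came next at the high end. Of the 31 genes, 26 were above their own mean in Egr1cKO male 3 and in Egr1cKO female 1, and 3 in Egr1wt NesCre- female 1. By genotype the mean deviation was -0.08 ± 0.06 in Egr1wt NesCre-, -0.02 ± 0.10 in Egr1f NesCre-, 0.01 ± 0.12 in Egr1wt NesCre+ and 0.09 ± 0.12 in Egr1cKO mice (mean ± SD, n = 6), ranges that overlap. Without male 3 the mean of the other 5 Egr1cKO mice was 0.04 ± 0.059, and that of the other 5 Egr1wt NesCre+ mice without their male 3 was 0.052 ± 0.072. Egr1cKO male 3 also had the lowest mean of the oligodendrocyte markers (-0.54), and Egr1wt NesCre+ female 1 had the highest (0.53). These mice also had the lowest means of the hippocampal markers, -0.70 and -0.66. Ttr was high in Egr1wt NesCre+ female 1 (1907 CPM) and in Egr1wt NesCre+ male 3 (289.9 CPM), at opposite ends of the range, and the endothelial markers were at 0.43 in the first and -0.49 in the second.

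**Figure D5:**
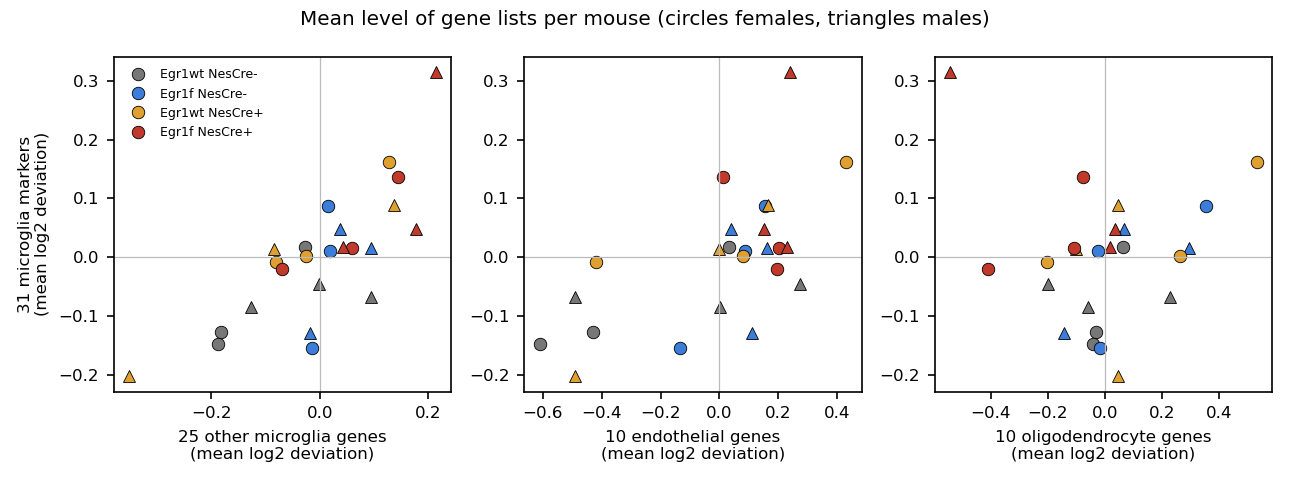
Mean log2 deviation of the 31 genes in each mouse (y axis) against that of 25 further microglial genes, 10 endothelial genes and 10 oligodendrocyte genes (x axes), with colors for genotype, circles for females and triangles for males. Egr1cKO male 3 lies highest at 0.31 and Egr1wt NesCre+ male 3 lowest at -0.20 in all panels.

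Of the 19711 tested genes outside the list, those whose centred levels followed the mean of the members most closely over the 24 mice were Ttyh1 (r = 0.84), Myo1f (0.84), Wdr62 (0.82), Tpcn1 (0.80), Cacng3 (0.77), Vwa5b1 (0.77), Ctso (0.75), Gnb4 (0.75), Sun1 (0.75) and Zfp61 (0.75). These were picked as the highest of many, and 2.67% of the genes outside the list had an r above 0.5. Among the 25 further microglial genes, 20 had an r above 0 and 7 above 0.5, with a median of 0.46. Slc2a5, the fructose transporter, was the highest of them (r = 0.71, rank 17), followed by Slco2b1, an organic anion transporter (0.66, rank 68).

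The wider microglial programme was covered with lists that held no member. Of the 25 further microglial genes, 0 were called by edgeR in any of the 8 comparisons, with 0 to 7 at an unadjusted p under 0.05, and DESeq2 called 1 (Nckap1l, against Egr1wt NesCre+ mice). Of these genes 15 had a log2 FC above 0 in Egr1cKO against Egr1f NesCre- mice, with a median of 0.11. C1qa and C1qb, subunits of complement C1q, had log2 FCs of 0.0057 (SE 0.09) and -0.02 (SE 0.08) there. Of 21 signalling partners, which include the ligands of the receptors above and factors that regulate microglia, 0 were called in any comparison by edgeR or DESeq2, with 1 to 3 at an unadjusted p under 0.05 by edgeR, and 15 had a log2 FC above 0 in Egr1cKO against Egr1f NesCre- mice. Cx3cl1, the ligand of Cx3cr1, and Apoe, a ligand of Trem2, were the highest per length and had log2 FCs of 0.04 (SE 0.07) and -0.13 (SE 0.09).

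Genes that mark activated microglia gave no call either. Of 15 genes of the disease-associated state, all were tested, 0 were called in any comparison by edgeR or DESeq2, 0 to 2 were at an unadjusted p under 0.05 by edgeR, and 6 had a log2 FC above 0 in Egr1cKO against Egr1f NesCre- mice, with a median of -0.02. Fth1, the ferritin heavy chain, had -0.29 (SE 0.09, adjusted p = 0.235, edgeR) and Ctsb, a lysosomal protease, -0.06 (SE 0.06). Their means in whole tissue were 1675 and 437 CPM, and which cells gave these transcripts was not tested. In contrast, 4 of the 15 genes (Itgax, Cst7, Clec7a and Lgals3) had means under 1 CPM. All 10 inflammatory cytokine and mediator genes had a mean under 1 CPM, 4 passed the filter on low counts, and by edgeR 0 were called and 0 were at an unadjusted p under 0.05 in any comparison. DESeq2 called 0 as well.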

How the data were processed

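Hippocampal RNA of 24 mice was measured, and sex, genotype and replicate number came from the labels. The authors trimmed reads with Trim Galore and mapped and counted them per gene with STAR on mm10 (GRCm38). The submitters' processing notes give Trim Galore 3.8.2 and STAR 2.7.9, and the methods of the study name other versions of the same tools. The gene annotation is not given in the sources used here. The authors deposited unnormalized counts for 36605 genes, and a table of the authors' sample names was not used. The member list and the other gene lists were chosen with earlier results of these data known.

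Members were matched by symbol through GENCODE M21. Levels are CPM with TMM factors, and exonic length gave CPM per kb. Counts were tested in R 4.3.3 with the quasi-likelihood F test of edgeR 4.0.16, after filterByExpr with a minimum count of 10, with Benjamini-Hochberg adjustment over 19742 genes. Genotype and sex were fitted over all 24 mice. The sex difference used 8 group means, and Egr1cKO against the other 18 mice used no covariate. A SE is the log2 FC divided by the square root of F. A call needed an adjusted p of at most 0.05 and, except for the interaction and the sex difference, a fold change of at least 1.2. For correlations, log2 CPM (prior count 2) were centred on the 8 group means. All members could be named, and the 3 with the smallest p in each comparison were always named. Genes of other lists were named where called or among the 2 highest per length, as were the 10 genes closest to the members' mean. Any other gene was chosen after its values were seen. The tests were checked on simulated data. Alternatives were DESeq2 1.42.0, its size factors in edgeR, no count filter, the replicate number as a block, no sex term, only the mice compared and each mouse left out. Leaving out 5 mice with high Ttr, and single mice from genotype means, was added after the data were seen. The lowest chi-square per degree of freedom between mice of a group was 5.04, so each mouse counted as 1 replicate.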

Additional observations from a re-analysis of the deposited data

Results flagged for a closer look

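Within groups of 6 mice, 6 of 128 tests of a gene in a group found a mouse whose distance to its nearest neighbour exceeded Dixon's critical value, and chance flags about 1 in 20. Egr1cKO male 3 stood apart in 3 of them. It had 42.08 CPM of P2ry12 (the other 5 at most 34.5), 19.19 CPM of Unc93b1 (at most 15.0) and 5.712 CPM of Spi1 (at most 3.28). Egr1wt NesCre- male 1 had 2.277 CPM of Apbb1ip, where the other 5 had at least 4.85. Egr1wt NesCre+ male 1 had 10.05 CPM of Ly86 (the other 5 at most 7.12), and Egr1wt NesCre+ female 1 had 21.93 CPM of Olfml3 (at most 16.9).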

How the results depend on the processing

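None of the alternatives run turned the direction of the 3 genes with the smallest p in each comparison. Without a filter on low counts, 1 gene was called against Egr1f NesCre- mice (Sall1, log2 FC 0.36, adjusted p = 0.0221, edgeR) and 1 against Egr1wt NesCre+ mice (Mertk, 0.35, adjusted p = 0.00465, edgeR). Leaving out 1 mouse at a time gave 0 to 2 calls against Egr1wt NesCre+ mice. Without the 5 mice with high Ttr, chosen after the data were seen, the median of the sex difference was -0.28 rather than -0.085. That fit kept only male 1 among the Egr1f NesCre- males, so the -0.28 rests on 1 library there. Calls over all genes, in the order of the 8 comparisons above starting with Egr1cKO against Egr1f NesCre-, Egr1cKO against Egr1wt NesCre+, Cre, floxP, interaction, sex, sex difference and the other 18 mice, were 6, 1, 0, 0, 1, 13, 0 and 1. They were 803, 794, 175, 82, 1173, 79, 61 and 7 with no filter, 35, 35, 9, 5, 36, 16, 3 and 34 by DESeq2, and 2, 5, 0, 0, 1, 8, 0 and 22 without the 5 mice. With the replicate number as a block, 0 of the 31 genes were called in each comparison, and the median log2 FC against Egr1f NesCre- mice was 0.13. Same-numbered mice did not deviate together (median r -0.0077 over 84 pairs), so the numbers were not used as pairs. With 6 mice a group, the median SE of 0.12 limits the size of difference that could be told from the spread between mice.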
